A study of Homo sapiens with 8 samples.

Results

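The adhesion G protein-coupled receptors described here are 6 genes, ADGRE1, ADGRE2, ADGRE3, ADGRE5, ADGRG1 and ADGRG3, found by their symbols among 37526 gene names that all 8 count tables share. They were chosen on their levels in these same libraries, so their own differences between groups are given as a description, without a test. RNA-seq was performed in NB4 cells, a line established from acute promyelocytic leukemia (APL) that carries the PML/RARα fusion. The cells stably carried an shRNA against KDM3B, an H3K9 demethylase (shKDM3B), or a control vector (scramble), and were left untreated or were treated with 1 µM all-trans retinoic acid (ATRA) for 24 or 48 h, the labels not saying which time belongs to which library. The dose is that of the labels, whereas the study's methods give it as 1 mM. All cells had been infected with the lentiviral vector and selected with puromycin. Each of the 4 groups held 2 libraries. The labels describe the control as the empty vector and the study's methods as a scrambled shRNA. Those methods list 2 shRNAs against KDM3B, and the sample titles do not say which the shKDM3B libraries carry. Lower KDM3B and other differences between the lines cannot be told apart here. The sources used here do not say that the 2 libraries of a group came from separate cultures, so p-values measure the spread between libraries, which may be technical.

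Adhesion receptors combine a long extracellular part, built from adhesion domains, with the membrane-spanning part of a G protein-coupled receptor. Most are cut by their own GAIN domain next to the membrane, and the stretch exposed when the extracellular fragment moves away can act as a tethered agonist. Many of these receptors signal through G12/13 proteins. The ADGRE subfamily carries EGF-like repeats and is found mainly on leukocytes. ADGRE5, known as CD97, binds CD55, and both ADGRE5 and ADGRE2 (EMR2) bind chondroitin sulfate. ADGRE1 (EMR1) marks eosinophils in humans, ADGRE3 (EMR3) is found on mature granulocytes, ADGRG1 (GPR56) on cytotoxic lymphocytes, and ADGRG3 (GPR97) on neutrophils.

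The 6 genes lie in a small number of clusters of hg38, the build the study used (GENCODE annotation). On the plus strand of chromosome 16, ADGRG1 (57610652 to 57665580) and ADGRG3 (57668277 to 57689378) follow each other in tandem, 2.70 kb apart. On chromosome 19, ADGRE1 (6887566 to 6940459, plus strand) lies 14.2 kb from the pseudogene ADGRE4P. ADGRE5 (14380501 to 14408725, plus strand), ADGRE3 (14619117 to 14690027, minus strand) and ADGRE2 (14732392 to 14778560, minus strand) form a separate group on the same chromosome.

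The proximal promoters of ADGRE1 and ADGRE3, the members with the largest differences between shKDM3B and scramble cells, are shown as the 250 bases before the start in RefSeq (GRCh38.p14), 5′ to 3′ on the gene's strand. Both starts equal that of the gene's canonical GENCODE transcript, and for ADGRE3 this lies 15.2 kb downstream of the outermost annotated start, the end of the gene span given above. The sequences are chr19:6887329-6887578 on the plus strand for ADGRE1 and chr19:14674845-14675094 on the minus strand for ADGRE3. Capitals mark matches to GAGGAA, the core of the PU.1 motif, or to AGGTCA, the repeated unit of retinoic acid response elements, on either strand.
ADGRE1: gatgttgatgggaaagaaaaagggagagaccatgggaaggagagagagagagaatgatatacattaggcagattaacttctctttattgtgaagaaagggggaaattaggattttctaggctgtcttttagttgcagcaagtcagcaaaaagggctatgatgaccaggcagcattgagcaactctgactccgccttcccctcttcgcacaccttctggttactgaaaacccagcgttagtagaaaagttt
ADGRE3: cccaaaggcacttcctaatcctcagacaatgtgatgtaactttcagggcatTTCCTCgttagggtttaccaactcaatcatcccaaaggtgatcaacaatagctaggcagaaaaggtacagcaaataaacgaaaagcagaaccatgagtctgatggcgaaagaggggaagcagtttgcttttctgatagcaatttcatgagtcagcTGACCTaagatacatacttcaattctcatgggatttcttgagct
The ADGRE1 window held no match to either motif, and the ADGRE3 window held 1 match to each, both as the reverse complement (TTCCTC and TGACCT). Among 35116 promoter windows of the same length, 23.57% held GAGGAA and 12.08% held AGGTCA on either strand, and the searches do not overlap in letters. Windows were on hand for 3 of the 6 members: those of ADGRG1, 3 in all, held no match.

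ADGRE1 was also among the genes for which the study designed a qPCR assay, and its primer pair is shown because it marks the measured stretch of the transcript.
ADGRE1 forward primer: CACATCTGTGCCTTTGGTTATG
ADGRE1 reverse primer: TTCAGCCAGCAGCGATTAT
Both primers matched ADGRE1 alone among the annotated transcripts and gave a product of 101 bases in 5 of its 8 transcripts. In the canonical transcript the forward primer lies in exon 16 of 21 (chr19:6926513-6926534) and the reverse primer spans the junction of exon 16 (chr19:6926595-6926601) and exon 17 (chr19:6928145-6928156). The printed reverse primer is given 5′ to 3′ as the reverse complement of the transcript.

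The libraries differed in depth, in reads outside genes and in the gene names listed. Counts on genes ran from 9708739 to 33017787 per library, and the untreated libraries were all deeper than the treated ones. Of the read pairs, 8.49 to 9.62% fell outside genes in the untreated libraries and 9.36% in scramble+ATRA replicate 1, against 50.0 to 51.4% in the other 3 treated libraries. The untreated and treated tables list different sets of gene names, so depth and names follow the treatment. Levels are CPM, counts scaled to a library's reads on the 37526 gene names that all tables share, after TMM scaling over all 8 libraries. Fold changes come from edgeR's quasi-likelihood fit of each pair of groups. Here "called" means an unadjusted P under 0.05 with a fold change of at least 1.5. KDM3B itself had 186 and 189 CPM in the scramble cells and 75.1 and 89.1 in the shKDM3B cells, a log2 fold change of -1.21 ± 0.15 (SE, adjusted p = 0.068, edgeR). With ATRA it had 194 and 120 CPM in the scramble cells and 52.8 and 57.1 in the shKDM3B cells (log2 -1.53 ± 0.29, adjusted p = 0.502, edgeR). Of the 8 promyelocyte markers examined, MPO reached 4251 to 9845 CPM without ATRA, while ELANE, AZU1 and PRTN3 stayed at or below 1.48 CPM in every library.

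**Figure D1:**
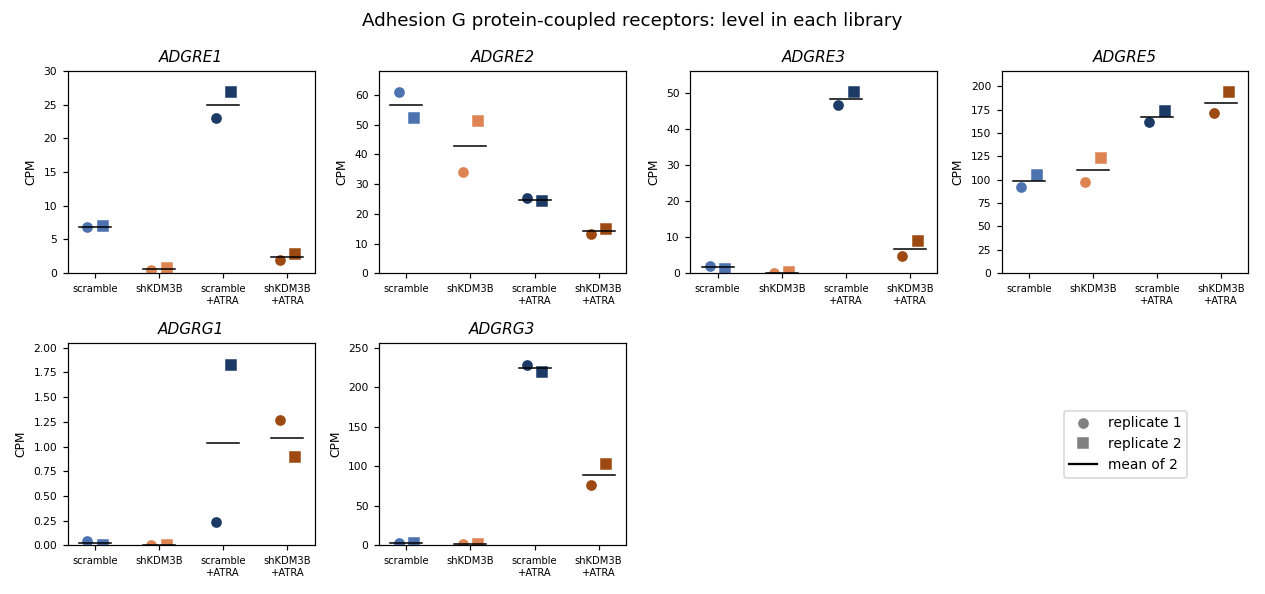
Level of each receptor gene in CPM (vertical axis, linear from 0) in the 4 groups; circles are replicate 1, squares are replicate 2 and lines are means of 2 libraries. ADGRE1, ADGRE3 and ADGRG3 were highest in the scramble+ATRA libraries, ADGRE5 was higher in all 4 treated than in the untreated libraries, and ADGRE2 was the member with lower levels after ATRA.

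Without ATRA, the 6 receptors were expressed at very different levels. Per kilobase of annotated exon, the order in scramble cells was ADGRE5 (18.3 CPM per kb, mean of 2), ADGRE2 (6.54), ADGRE1 (1.86), ADGRG3 (1.04), ADGRE3 (0.568) and ADGRG1 (0.00276). No neighbours in this order overlapped between libraries. After ATRA, ADGRG3 came first in the scramble cells with 69.1 CPM per kb, followed by ADGRE5 (31.1), ADGRE3 (17.1), ADGRE1 (6.72), ADGRE2 (2.86) and ADGRG1 (0.115), again without overlap between neighbours. In the shKDM3B cells without ATRA, the order was ADGRE5 (20.5 CPM per kb), ADGRE2 (4.95), ADGRG3 (0.570), ADGRE1 (0.164), ADGRE3 (0.0481) and ADGRG1, which had no counts. In the shKDM3B+ATRA cells, ADGRE5 (33.9 CPM per kb) stayed just above ADGRG3 (27.6), at 31.8 to 35.9 against 23.6 to 31.7 in the single libraries. The remaining members there were ADGRE3 (2.41), ADGRE2 (1.63), ADGRE1 (0.649) and ADGRG1 (0.120), and ADGRE3 and ADGRE2 overlapped. Summed over the 6 genes, the level was 165 and 169 CPM in scramble cells, 133 and 178 in shKDM3B cells, 485 and 496 in scramble+ATRA cells and 269 and 323 in shKDM3B+ATRA cells. In scramble cells the makeup of that sum shifted from ADGRE5 and ADGRE2, which gave 55.7 to 62.2% and 30.8 to 37.0% of it without ATRA, to ADGRG3, which gave 47.1 and 44.2% with ATRA. In the shKDM3B+ATRA cells ADGRE5 still gave the most, 63.7 and 59.8%, and ADGRG3 gave 28.4 and 31.7%.

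The first comparison was between shKDM3B and scramble cells without ATRA. ADGRE1, ADGRE3 and ADGRG3 were lower in shKDM3B cells than in scramble cells, ADGRE1 and ADGRE3 by the widest margins. Of the 5 members that passed the filter on low counts, 0 were called higher and 3 lower, where 3.48% of all genes tested were called higher and 3.53% lower. The median log2 fold change of the 5 was -0.87, against 0.00 over 13855 genes. ADGRE3 passed the filter through the scramble libraries alone, so these figures describe the members that passed and are no test. The groups did not overlap for 4 of the 5, and for 40.3% of all genes tested.

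ADGRE1 had 6.82 and 6.97 CPM in the scramble cells (137 and 165 counts) and 0.455 and 0.762 in the shKDM3B cells (9 and 24 counts). The 2 groups were far apart, with little spread among the scramble libraries. The log2 fold change was -3.47 ± 0.36 (SE), 11.1-fold lower, and ranged from -3.89 to -3.22 when any 1 library was left out. ADGRE3 had 2.04 and 1.18 CPM in the scramble cells (41 and 28 counts) and 0.0505 and 0.222 in the shKDM3B cells (1 and 7 counts). Both shKDM3B libraries were lower than both scramble libraries, on few counts. Its log2 fold change was -3.39 ± 0.65 (SE), and it was -4.83 without shKDM3B replicate 2 and -2.88 without shKDM3B replicate 1.

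ADGRG3 had 3.04 and 3.72 CPM in the scramble cells and 1.31 and 2.38 in the shKDM3B cells. The groups did not overlap, but on a log scale shKDM3B replicate 2 lay nearer to the scramble libraries than to shKDM3B replicate 1. The log2 fold change was -0.87 ± 0.37 (SE), and ADGRG3 was no longer called without scramble replicate 2 (-0.72) or without shKDM3B replicate 1 (-0.55). With DESeq2 in place of edgeR it was not called either (-0.88).

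The members with the highest levels differed least. ADGRE5 had 91.7 and 105 CPM in the scramble cells and 97.5 and 124 in the shKDM3B cells, groups that overlapped (log2 0.15 ± 0.16, SE). ADGRE2 had 60.9 and 52.2 CPM against 34.2 and 51.3, so that 1 of the shKDM3B libraries lay just under the lower scramble library. Its log2 fold change was -0.42 ± 0.21 (SE), and it was called without shKDM3B replicate 2 (-0.71). ADGRG1 was nearly silent, with 1 and 0 counts in the scramble libraries and 0 in both shKDM3B libraries, which allows up to 0.0909 to 0.154 CPM per library by counting error alone.

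The same comparison was then made in ATRA-treated cells. ADGRE1, ADGRE2, ADGRE3 and ADGRG3 were lower in shKDM3B+ATRA than in scramble+ATRA cells. Of 6 members tested, 0 were called higher and 4 lower, where 2.42% of all genes tested were called higher and 4.37% lower. The median log2 fold change of the 6 was -1.08, against 0.03 over 14281 genes. The groups did not overlap for 4 of the 6, and for 49.6% of all genes tested. In this comparison 0 of 14281 genes passed an adjusted p of 0.05 in edgeR, with 1383 at an unadjusted P under 0.05, whereas DESeq2 gave 464 genes past the adjusted threshold. 

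ADGRE1 had 23.0 and 26.8 CPM in the scramble+ATRA cells and 2.01 and 2.80 in the shKDM3B+ATRA cells. The treated shKDM3B cells thus stayed below even the untreated scramble cells. The log2 fold change was -3.38 ± 0.31 (SE), and it was -3.47 without scramble+ATRA replicate 1, the treated library with few reads outside genes. ADGRE3 had 46.9 and 50.3 CPM in the scramble+ATRA cells and 4.67 and 8.99 in the shKDM3B+ATRA cells (log2 -2.84 ± 0.41, SE). ADGRG3 had 229 and 219 CPM against 76.3 and 103 (log2 -1.34 ± 0.20, SE). For both genes the groups were well separated, and without scramble+ATRA replicate 1 the log2 fold changes were -2.87 and -1.29.

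ADGRE2 had 25.3 and 24.2 CPM in the scramble+ATRA cells and 13.4 and 14.8 in the shKDM3B+ATRA cells, without overlap (log2 -0.83 ± 0.20, SE). Leaving out either shKDM3B+ATRA library ended its call (-0.74 without replicate 1 and -0.91 without replicate 2). ADGRE5 had 161 and 174 CPM in the scramble+ATRA cells against 171 and 193 in the shKDM3B+ATRA cells, and the groups overlapped (log2 0.11 ± 0.13, SE). ADGRG1 had 0.242 and 1.83 CPM (4 and 20 counts) in the scramble+ATRA cells and 1.27 and 0.899 (12 and 9 counts) in the shKDM3B+ATRA cells. The low library, scramble+ATRA replicate 1, is the one with 9.36% of read pairs outside genes, whereas the other 3 have about 50%, and the part of this difference in the ADGRG1 values was not tested. Its log2 fold change was 0.09 ± 1.10 (SE), and it ran from -0.75 without scramble+ATRA replicate 1 to 2.09, then called, without scramble+ATRA replicate 2.

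**Figure D2:**
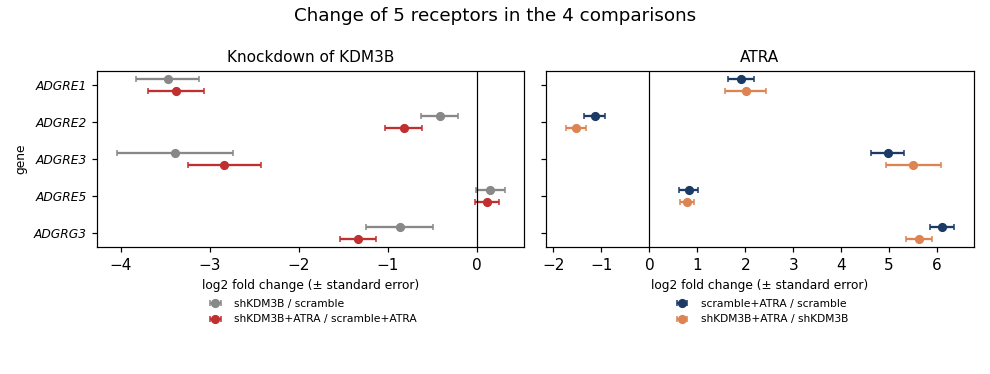
Log2 fold change with its standard error (horizontal axis) for 5 receptor genes (vertical axis), from fits of 2 libraries against 2; the left panel compares shKDM3B with scramble cells without and with ATRA, and the right panel compares ATRA-treated with untreated cells. ADGRE1 and ADGRE3 lie farthest to the left in both knockdown comparisons, and ADGRG3 lies farthest to the right under ATRA (6.10 in scramble and 5.61 in shKDM3B cells); ADGRG1 is left out because its untreated libraries held at most 1 count.

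With ATRA, ADGRE1, ADGRE3, ADGRE5 and ADGRG3 were higher and ADGRE2 was lower in both lines. In scramble cells, 5 of 5 members tested were called, 4 higher and 1 lower, where 15.0% of all genes tested were called higher and 10.8% lower. The median log2 fold change of the 5 was 1.90, against 0.02 over 12429 genes. In shKDM3B cells, ADGRE5 and ADGRG3 were called higher and ADGRE2 lower, where 24.0% of all genes tested were called higher and 18.3% lower. ADGRE1, ADGRE3 and ADGRG1 were called higher too, but only in the treated group did both libraries reach the filter's level, so no median over the members is given for these cells. The groups did not overlap for ADGRE1, ADGRE2, ADGRE3, ADGRE5 or ADGRG3 in either comparison, nor for 57.1% of all genes tested in scramble and 76.8% in shKDM3B cells. In both lines the treated libraries were less deep than the untreated ones and listed other gene names. Depth, gene names and the treatment thus cannot be told apart in either line. In the shKDM3B cells both treated libraries had about 51% of reads outside genes, so that share and the treatment cannot be told apart there. In scramble cells only treated replicate 2 had a share like it (50.0%). In bulk RNA, fewer cells that express a gene and less RNA per cell cannot be told apart either.

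ADGRG3 had the largest fitted difference among the 5 members with counts in every library. It went from 3.04 and 3.72 CPM in the scramble cells to 229 and 219 with ATRA (log2 6.10 ± 0.26, SE), 68.4-fold. In the shKDM3B cells it went from 1.31 and 2.38 to 76.3 and 103 CPM (log2 5.61 ± 0.27, SE). Its lead over ADGRE3 (5.50) was small there. Without shKDM3B replicate 2 the order turned, with 6.11 for ADGRG3 and 6.86 for ADGRE3. Between the 2 scramble groups, leaving out scramble+ATRA replicate 2, so that all 3 libraries left had under 10% of reads outside genes, gave 6.10 for ADGRG3.

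ADGRE3 went from 2.04 and 1.18 CPM to 46.9 and 50.3 in the scramble cells (log2 4.96 ± 0.34, SE). In the shKDM3B cells it went from 0.0505 and 0.222 to 4.67 and 8.99 CPM (log2 5.50 ± 0.57, SE), and this value was 6.86 without shKDM3B replicate 2. The treated shKDM3B libraries remained well under the treated scramble libraries. ADGRE1 went from 6.82 and 6.97 CPM to 23.0 and 26.8 in the scramble cells (log2 1.90 ± 0.27, SE) and from 0.455 and 0.762 to 2.01 and 2.80 in the shKDM3B cells (log2 2.01 ± 0.42, SE). Its treated levels were above the untreated ones in both lines. Without scramble+ATRA replicate 2, the values in scramble cells were 4.89 for ADGRE3 and 1.76 for ADGRE1.

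ADGRG1, beside ADGRG3 on the chromosome, went from 1 and 0 counts to 4 and 20 in the scramble cells, where it did not pass the filter. The 20 counts were in scramble+ATRA replicate 2, with 50.0% of read pairs outside genes, and the 4 counts of replicate 1 are close to a floor of 3 counts per library. In the shKDM3B cells it went from 0 counts in both libraries to 12 and 9, at least 8.80-fold higher than that floor. Even so it stayed below 2 CPM in every library.

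ADGRE5 changed least, from 91.7 and 105 CPM to 161 and 174 in the scramble cells (log2 0.82 ± 0.20, SE) and from 97.5 and 124 to 171 and 193 in the shKDM3B cells (log2 0.79 ± 0.14, SE). It was not called in scramble cells without scramble replicate 1 (0.70). ADGRE2 was the member that was lower with ATRA, from 60.9 and 52.2 CPM to 25.3 and 24.2 in the scramble cells (log2 -1.14 ± 0.22, SE). In the shKDM3B cells it went from 34.2 and 51.3 to 13.4 and 14.8 CPM (log2 -1.53 ± 0.21, SE). ADGRE2 and ADGRE5, close relatives that share sequence in their EGF-like repeats, thus moved in opposite directions under ATRA. The share of 150-base windows of ADGRE5 transcripts that also occur in ADGRE2 was 4.90%. Reads of ADGRE2 are also less certain because 15.7% of its exon length overlaps exons of ZNF333 on the opposite strand and the strand setting of the counting is not given in the sources used here. ZNF333 had 35.0, 29.1, 21.0 and 22.2 CPM in the untreated scramble and shKDM3B libraries and 26.0, 37.3, 24.1 and 24.6 in the treated ones, and was called in none of the 4 comparisons.

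The difference between the 2 responses to ATRA, shKDM3B minus scramble, was estimated in 1 fit of all 8 libraries. It was 0.10 ± 0.40 (SE, log2) for ADGRE1, 0.54 ± 0.70 for ADGRE3 and -0.48 ± 0.38 for ADGRG3. It was -0.41 ± 0.29 for ADGRE2 and -0.04 ± 0.22 for ADGRE5. These estimates are a description for the members, and of 13528 genes in that fit 0 passed an adjusted p of 0.05 in edgeR, with 607 at an unadjusted P under 0.05. Without shKDM3B replicate 2 the estimate was 0.55 for ADGRE1, 1.97 for ADGRE3, -0.07 for ADGRE2 and 0.05 for ADGRG3, so the lower response of ADGRG3 rested on that library.

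The other 26 adhesion receptor genes of the human family served as a comparison. Of these, 11 were listed at 0 counts in every library, among them ADGRL2, ADGRL3 and ADGRL4, and 12 had at most 3 counts in any library. Between the untreated groups, 9 of the 26 were tested. Of these, 1 was called higher and 2 lower, against 3.48 and 3.53% of all genes tested. Their median log2 fold change was 0.03. Without scramble replicate 1, 6 were called, 3 of them higher, and without the filter on low counts 5, again 3 of them higher. CELSR1, a cadherin-like receptor of planar cell polarity, had 3.84 and 6.29 CPM in the scramble cells and 12.1 and 18.6 in the shKDM3B cells (log2 1.58 ± 0.31, SE, adjusted p = 0.130, edgeR). ADGRB1, a receptor for phosphatidylserine on apoptotic cells, was lower, with 37.8 and 31.6 CPM against 16.2 and 24.8 (log2 -0.77 ± 0.23, SE, adjusted p = 0.269, edgeR). ADGRE4P, the pseudogene beside ADGRE1, was lower too, with 2.49 and 3.68 CPM against 1.52 and 1.24 (log2 -1.18 ± 0.37, SE, adjusted p = 0.302, edgeR). None of these 3 passed the adjusted threshold. In treated cells, 8 were tested, with 1 called higher and 1 lower (2.42 and 4.37% of all genes) and a median of -0.02. Leaving out 1 library gave 0 calls without shKDM3B+ATRA replicate 2, 1 without shKDM3B+ATRA replicate 1 and 5 without scramble+ATRA replicate 2. ADGRE4P was again lower in shKDM3B cells, 7.62 and 7.68 CPM against 2.23 and 1.90 (log2 -1.90 ± 0.30, SE, adjusted p = 0.502, edgeR). ADGRV1, the very large receptor mutated in Usher syndrome, had 2 counts in each scramble+ATRA library and 20 and 12 in the shKDM3B+ATRA libraries, at least 7.28-fold higher than the floor of 3 counts.

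Under ATRA most of the other family genes that were called were lower. In scramble cells, 2 of 9 tested were called higher and 5 lower (median log2 -1.31), and in shKDM3B cells likewise 2 of 9 higher and 5 lower (median -0.79). The shares over all genes were 15.0% higher and 10.8% lower in scramble cells and 24.0 and 18.3% in shKDM3B cells. The 7 calls in scramble cells became 3 without scramble replicate 1, none of them higher, and 3 without scramble replicate 2. ADGRB1 fell from 37.8 and 31.6 CPM to 5.99 and 3.02 in scramble cells (log2 -2.88 ± 0.37, SE, adjusted p = 0.00305, edgeR) and from 16.2 and 24.8 to 2.12 and 1.20 in shKDM3B cells (log2 -3.56 ± 0.33, SE, adjusted p = 2.21e-05, edgeR). ADGRL1, a latrophilin, fell from 29.4 and 32.9 CPM to 14.3 and 9.97 in scramble cells (log2 -1.31 ± 0.27, SE, adjusted p = 0.0200, edgeR) and from 31.7 and 33.5 to 14.7 and 10.1 in shKDM3B cells (log2 -1.33 ± 0.20). CELSR2 fell in both lines (log2 -1.76 ± 0.43, SE, in scramble cells and -2.07 ± 0.30 in shKDM3B cells). CELSR1 fell in shKDM3B cells from 239 and 587 counts to 2 and 1, at least 49.7-fold lower against the floor, and was called lower in scramble cells (3.84 and 6.29 CPM against 0.121 and 1.19, adjusted p = 0.0613, edgeR). ADGRG6 was called lower in scramble cells, where it had 11 and 15 counts before ATRA and 3 and 0 after it, at least 2.59-fold lower. In shKDM3B cells, where it did not pass the filter, it had 66 and 20 counts before and 0 in both libraries after ATRA, at least 6.42-fold lower. That bound is on the mean of 3.33 CPM in replicate 1 and 0.635 in replicate 2, so it rests mostly on replicate 1. ADGRA2 was called lower in shKDM3B cells (log2 -0.79 ± 0.19, SE, adjusted p = 0.00782, edgeR). In the scramble cells its treated libraries held 0.847 and 13.0 CPM, with the low value again in scramble+ATRA replicate 1, the library with few reads outside genes. ADGRF3 was called higher in both lines, by 1.27 ± 0.43 (SE, log2, adjusted p = 0.104, edgeR) in scramble cells and 1.67 ± 0.33 (adjusted p = 0.00253, edgeR) in shKDM3B cells. ADGRE4P was called higher in scramble cells alone (log2 1.36 ± 0.38, SE, adjusted p = 0.0595, edgeR), and ADGRV1 in shKDM3B cells alone (log2 2.30 ± 0.59, SE, adjusted p = 0.0100, edgeR). The difference between the lines was among the 13528 tested above and passed for neither gene. CELSR3, at 0.899 to 2.12 CPM, was called in no comparison.

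Genes within 100 kb of the members were examined because the receptors lie in clusters. Of 27 such genes with names in all tables and no place in the family, 12 were tested between the untreated groups. Of the 12, 0 were called, against 3.48% of all genes called higher and 3.53% lower. In edgeR, 3 (DDX39A, GIPC1 and ZNF333) had an unadjusted P under 0.05 but were below 1.5-fold. In treated cells, 2 of 11 were called lower and none higher, against 4.37 and 2.42% of all genes. CLEC17A, a C-type lectin gene 7082 bases from ADGRE3, had 3.87 and 4.75 CPM in the scramble+ATRA cells and 0.424 and 0.700 in the shKDM3B+ATRA cells (log2 -2.92 ± 0.47, SE, adjusted p = 0.502, edgeR). NDUFB7, a subunit of respiratory complex I, was lower by a log2 fold change of -0.66 ± 0.12 (SE, adjusted p = 0.502, edgeR). Under ATRA, 3 of 12 neighbours were called higher and 2 lower in scramble cells, where 15.0% of all genes were called higher and 10.8% lower. In shKDM3B cells, 2 of 10 were called higher and 2 lower, against 24.0 and 18.3% of all genes. VAV1, a guanine nucleotide exchange factor of blood cells upstream of ADGRE1, was called higher in both (log2 0.74 ± 0.22, SE, adjusted p = 0.0729, and 0.88 ± 0.12, adjusted p = 0.000267, edgeR). KIFC3, a kinesin gene downstream of ADGRG3, fell in both, with log2 fold changes of -2.76 ± 0.31 (SE, adjusted p = 0.00194, edgeR) and -2.38 ± 0.16 (adjusted p = 2.96e-06, edgeR). CLEC17A rose in scramble cells, from 0.847 and 0.634 CPM (log2 2.58 ± 0.45, SE, adjusted p = 0.0111, edgeR). DNAJB1, a heat-shock co-chaperone, was called higher (log2 1.06 in scramble and 0.73 in shKDM3B cells) and CCDC102A lower (log2 -1.45 and -0.75). Thus ADGRG3 was higher with ATRA while KIFC3 was lower.

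**Figure D3:**
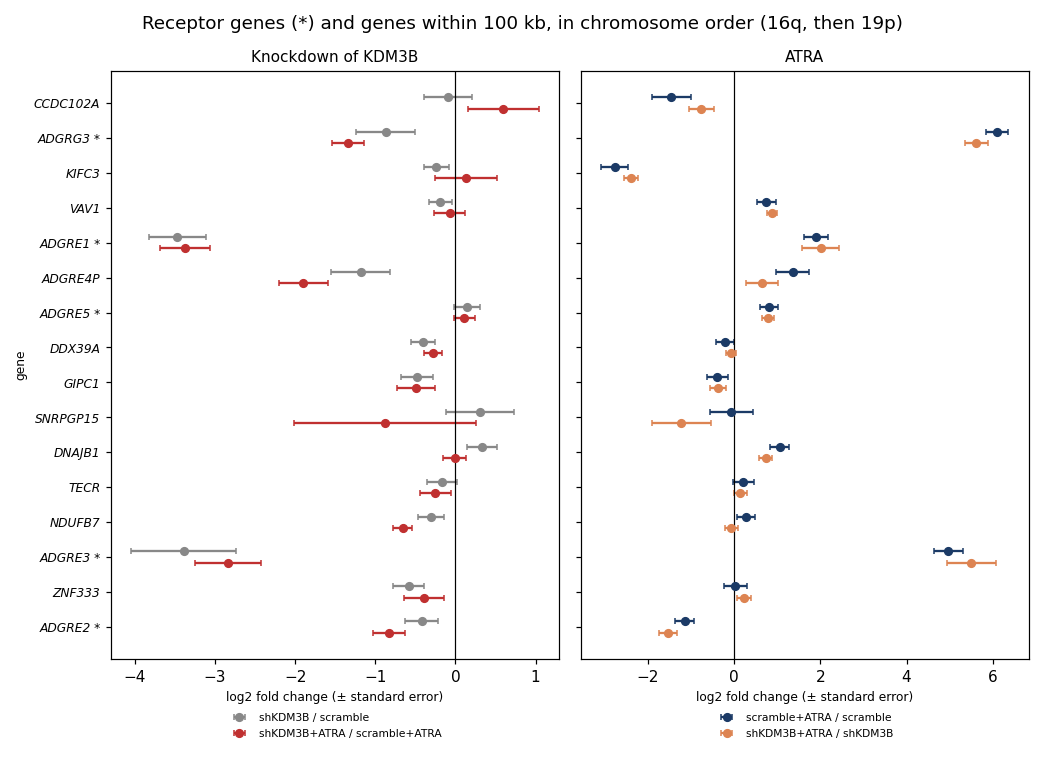
Log2 fold change with its standard error (horizontal axis) for the receptor genes (asterisks) and the genes within 100 kb of them that were tested under ATRA in both lines, listed in chromosome order from chromosome 16 to chromosome 19 (vertical axis). Under ATRA, ADGRG3 lies right of 0 between CCDC102A and KIFC3, which both lie left of it; in the knockdown comparisons ADGRE1, ADGRE3 and ADGRE4P lie left of the other genes within 100 kb that are plotted. CLEC17A, beside ADGRE3, is not plotted because it was not tested in shKDM3B cells under ATRA; its value of -2.92 in the treated knockdown is close to that of ADGRE3 (-2.84).

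Partners of the receptors were followed in 3 lists with 49 genes in all: ligands and membrane partners, enzymes of chondroitin sulfate synthesis, and G proteins with their effectors. Without ATRA, 1 of 39 tested was called higher and 1 lower in shKDM3B cells, no larger a share than the 3.48 and 3.53% of all genes, and 7 were called without scramble replicate 2. Both were chondroitin sulfotransferases, CHST12 (log2 0.70 ± 0.25, SE, adjusted p = 0.361, edgeR) and CHST7 (-1.07 ± 0.41, adjusted p = 0.413, edgeR). With ATRA, 3 of 40 were called higher and 4 lower in shKDM3B cells, against 2.42 and 4.37% of all genes. They included TGM2, a transglutaminase that ADGRG1 binds, at 5760 and 5098 CPM in the scramble+ATRA cells and 2283 and 2528 in the shKDM3B+ATRA cells (log2 -1.19 ± 0.15, SE, adjusted p = 0.502, edgeR). The integrin subunits ITGA5 (log2 0.61 ± 0.13) and ITGAV (0.69 ± 0.17) and the chondroitin synthase CHSY1 (0.78 ± 0.11) were called higher. CHST7 (log2 -1.52 ± 0.45), ARRB2, a β-arrestin (-0.73 ± 0.16), and ARHGEF1, a guanine nucleotide exchange factor (-0.62 ± 0.21), were called lower, with adjusted p between 0.502 and 0.508 (edgeR). In all, 14 partner genes were called without scramble+ATRA replicate 1, and 2 when replicate 1 or replicate 2 of shKDM3B+ATRA was left out.

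Under ATRA, 7 of 41 partner genes were called higher and 9 lower in scramble cells, and 7 of 39 higher and 12 lower in shKDM3B cells. Over all genes the shares were 15.0 and 10.8% in scramble and 24.0 and 18.3% in shKDM3B cells. In scramble cells the 16 calls became 10 without scramble replicate 2. CD55, the ligand of ADGRE5, rose from 33.2 and 36.5 CPM to 118 and 163 in scramble cells (log2 2.06 ± 0.24, SE, adjusted p = 0.00231, edgeR) and from 32.3 and 43.6 to 65.6 and 119 in shKDM3B cells (log2 1.35 ± 0.26, adjusted p = 0.00200, edgeR). Both the receptor and its ligand were thus higher in treated cells. TGM2 was at 0 counts in the scramble libraries and at 0 and 1 in the shKDM3B libraries before ATRA. ITGA5 fell, with log2 fold changes of -1.86 ± 0.21 (SE) in scramble cells and -1.51 ± 0.12 in shKDM3B cells. The tetraspanin CD9, which associates with ADGRG1 complexes, fell too (-1.91 ± 0.41 and -2.48 ± 0.32). Among the chondroitin enzymes, 2 of 18 were called higher and 4 lower in scramble cells and 3 of 17 higher and 6 lower in shKDM3B cells. CHST11, a main chondroitin 4-O-sulfotransferase, fell from 140 and 206 CPM to 65.1 and 55.0 in scramble cells (log2 -1.48 ± 0.25, SE, adjusted p = 0.00958, edgeR) and from 138 and 235 to 40.0 and 50.5 in shKDM3B cells (log2 -1.97 ± 0.23, adjusted p = 9.47e-05, edgeR). CHST13, another 4-O-sulfotransferase, fell as well, with log2 fold changes of -3.72 ± 0.37 in scramble and -5.49 ± 0.45 in shKDM3B cells. CHST15, a sulfotransferase acting on the chondroitin 4-sulfate unit, was at 0 counts before ATRA and at 2.42 and 1.83 CPM in scramble+ATRA cells, at least 15.4-fold higher than the floor, while the shKDM3B+ATRA libraries held 9 and 3 counts. CHST7 rose by 2.01 ± 0.40 on the log2 scale in scramble (adjusted p = 0.0189, edgeR) and 1.57 ± 0.42 in shKDM3B cells (adjusted p = 0.0119, edgeR). DSE, the epimerase that turns chondroitin into dermatan sulfate, rose by 2.66 ± 0.27 in shKDM3B cells, with 0.34 ± 0.64 in scramble cells, where it was not called. The chain-starting xylosyltransferase XYLT1 fell in both lines, with log2 fold changes of -1.94 ± 0.45 in scramble (adjusted p = 0.0314, edgeR) and -3.00 ± 0.34 in shKDM3B cells (adjusted p = 7.71e-05, edgeR).

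Of the G proteins and effectors, 3 of 15 were called higher and 3 lower in scramble cells and 1 of 15 higher and 4 lower in shKDM3B cells under ATRA. Over all genes tested, 15.0 and 10.8% were called higher and lower in scramble cells and 24.0 and 18.3% in shKDM3B cells. GNA15, a blood-cell Gq-type subunit, fell, with log2 fold changes of -1.51 ± 0.26 (SE) in scramble cells and -1.37 ± 0.15 in shKDM3B cells. GNA12, a G12/13 subunit, fell as well (log2 -1.03 ± 0.22, adjusted p = 0.0221, and -0.87 ± 0.17, adjusted p = 0.00226, edgeR). ARHGEF1, the exchange factor downstream of G12/13, rose by 1.02 ± 0.24 (adjusted p = 0.0331, edgeR) and 0.69 ± 0.13 (adjusted p = 0.00196, edgeR). GNA11 was called lower in both (-1.21 ± 0.40, adjusted p = 0.0992, and -1.20 ± 0.22, adjusted p = 0.00164, edgeR). GNB2 was called higher in scramble cells (0.78 ± 0.23, adjusted p = 0.0709, edgeR), and its 0.52 ± 0.13 in shKDM3B cells (adjusted p = 0.00884, edgeR) was below 1.5-fold. The median log2 fold changes of the list were -0.05 and 0.14, against 0.02 and 0.05 over all genes.

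Since ADGRE1 marks eosinophils and NB4 cells are promyelocytic, markers of other blood cells were read beside the receptors. Of 10 eosinophil markers, 8 were tested between the untreated groups, and 0 were called higher and 6 lower in shKDM3B cells. Over all genes tested, 3.48% were called higher and 3.53% lower. The median log2 fold change of the 8 was -1.38. IL5RA, ALOX15, PRG3 and SIGLEC8 reached the filter's level in both libraries only in scramble cells. These figures thus describe the markers that passed and are no test. Summed, the 10 markers had 336 to 481 CPM in the scramble cells and 168 to 255 in the shKDM3B cells. SIGLEC8, a surface lectin of eosinophils, had 2.14 and 2.91 CPM in the scramble cells and 0.404 and 0.540 in the shKDM3B cells (log2 -2.41 ± 0.42, SE, adjusted p = 0.111, edgeR). EPX, eosinophil peroxidase, had 144 and 284 CPM against 70.8 and 120 (log2 -1.18 ± 0.32, SE, adjusted p = 0.227, edgeR). In treated cells, 0 of 7 were called higher and 3 lower, RNASE2, CCR3 and SIGLEC8, against 2.42 and 4.37% of all genes tested. SIGLEC8 and PRG2 reached the filter's level in both libraries only in scramble+ATRA cells, and RNASE3 only in shKDM3B+ATRA cells. The sums of the 10 markers were 97.9 to 122 CPM in the scramble cells and 35.2 to 49.8 in the shKDM3B cells. The log2 fold changes were negative for 8 of 8 markers tested without ATRA and for 6 of 7 with it, as for ADGRE1. RNASE3 (-0.09) and PRG2 (-0.19) changed little without ATRA. This direction was not particular to eosinophil markers. Without and with ATRA, 0 of 7 and 0 of 8 neutrophil markers and 0 of 4 and 0 of 3 monocyte markers had positive values.

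Under ATRA the eosinophil markers did not move with ADGRE1 as a group. In scramble cells 2 of 10 were called higher and 6 lower (15.0 and 10.8% of all genes). In shKDM3B cells 2 of 6 were called higher and 4 lower (24.0 and 18.3% of all genes). The higher ones were CCR3, the eotaxin receptor, and CLC, the Charcot-Leyden crystal protein. Both of these reached the filter's level in both libraries only after ATRA. Of those called lower, IL5RA and PRG3 in scramble cells and PRG2 in shKDM3B cells did so only before it. EPX fell from 144 and 284 to 13.6 and 12.5 CPM in scramble cells (log2 -3.98 ± 0.36, SE, adjusted p = 0.00087, edgeR) and by a log2 fold change of -4.56 ± 0.44 in shKDM3B cells (adjusted p = 2.94e-05, edgeR). IL5RA and ALOX15 stayed below 1 CPM in every library.

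**Figure D4:**
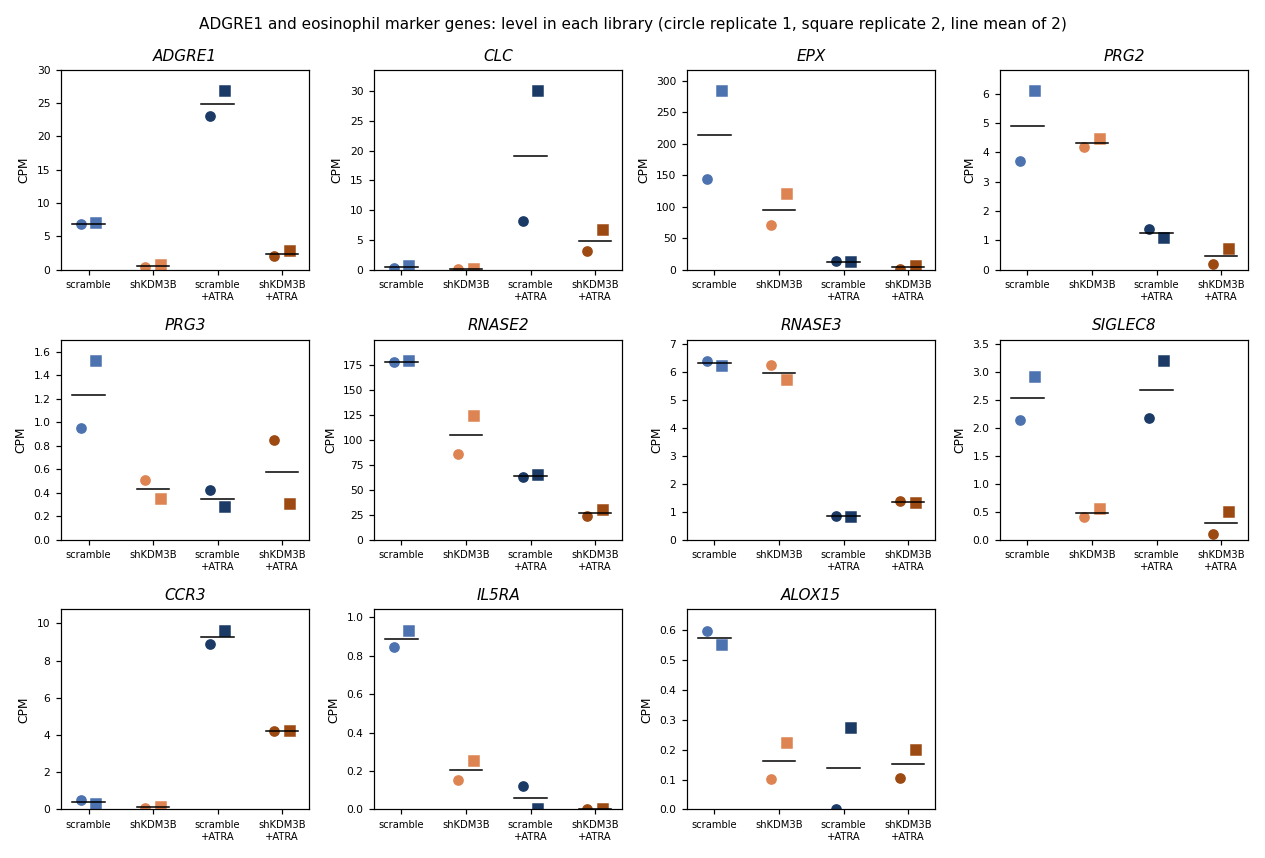
Level in CPM (vertical axis, linear from 0) of ADGRE1 and the 10 eosinophil marker genes in the 4 groups; circles are replicate 1, squares are replicate 2 and lines are means of 2 libraries. SIGLEC8 was lower in shKDM3B than in scramble cells at both conditions, as ADGRE1 was, whereas EPX, PRG2 and RNASE3 were lower with ATRA and ADGRE1 was higher.

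Of 12 neutrophil markers, 8 were tested under ATRA, and 7 were called higher and 1 lower in each line. Over all genes tested, 15.0 and 10.8% were called higher and lower in scramble and 24.0 and 18.3% in shKDM3B cells. MMP8 in both lines and S100A8 in shKDM3B cells reached the filter's level in both libraries only after ATRA, so the counts are a description. The summed levels of the 12 markers were 160 to 162 CPM in scramble, 91.5 to 108 in shKDM3B, 1238 to 1243 in scramble+ATRA and 366 to 416 in shKDM3B+ATRA cells. FCGR3B, CXCR1, LTF and CEACAM8, markers of the mature cell or its specific granules, stayed under 1 CPM in every library. In shKDM3B cells, 3 of 7 neutrophil markers tested were called lower without ATRA and 5 of 8 with it, and none higher. Over all genes tested, 3.53% were called lower and 3.48% higher without ATRA, and 4.37 and 2.42% with it. In direction, 0 of 7 and 0 of 8 of the log2 fold changes were positive. Without ATRA, S100A8 reached the filter's level in both libraries only in scramble cells. Of 10 monocyte markers, CD163 was at 0 and 6 in all, CD14 included, stayed under 1 CPM throughout, and the list's sum was 43.3 to 44.7, 21.6 to 36.2, 71.5 to 116 and 16.6 to 29.2 CPM in the same order of groups. Of 11 markers of cytotoxic lymphocytes, which carry ADGRG1, GZMB, FGFBP2 and CD8A were at 0 and 8 stayed under 1 CPM. Their sum was 66.8 to 76.4, 42.2 to 53.1, 88.9 to 109 and 23.5 to 43.7 CPM in that order. The promyelocyte markers summed to 6464 to 7649 CPM in scramble, 10900 to 12700 in shKDM3B, 2863 to 4216 in scramble+ATRA and 7067 to 7447 in shKDM3B+ATRA cells, nearly all of it from MPO and SRGN. Of these markers, 1 of 7 tested was called higher in shKDM3B cells without ATRA and 1 of 4 with it, and none lower. Under ATRA, 0 of 6 were called higher and 3 lower in scramble cells, and 1 of 5 higher and 3 lower in shKDM3B cells. The part that any of these marker genes' cells or states had in the receptor levels was not tested.

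The genes whose profiles over the 8 libraries were nearest to the receptors were listed for ADGRE1 and ADGRG3, by Euclidean distance of log2(CPM + 1) centred on each gene's mean, among 11939 genes with a mean of at least 1 CPM. Nearest to ADGRE1 were CD36 (distance 1.32), a scavenger receptor, PLB1 (1.33), a phospholipase, and IL18RAP (1.45), a subunit of the interleukin-18 receptor. PLB1 had 9.71 and 11.0 CPM in the scramble cells, 1.11 and 1.59 in the shKDM3B cells, 37.6 and 25.3 in the scramble+ATRA cells and 8.91 and 5.90 in the shKDM3B+ATRA cells. Its highest levels, like those of ADGRE1, were in scramble+ATRA and its lowest in untreated shKDM3B libraries. This likeness follows from how PLB1 was picked. Nearest to ADGRG3 were LAMB3 (0.611), a laminin chain, CDH23 (0.749), a cadherin, and BCL2A1 (0.767), an inhibitor of apoptosis. LAMB3 had 2.79 and 4.35 CPM in the scramble cells, 2.17 and 2.98 in the shKDM3B cells, 280 and 262 in the scramble+ATRA cells and 108 and 164 in the shKDM3B+ATRA cells. These distances describe 8 libraries of 1 line and share the differences of depth and of reads outside genes given above.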

How the data were processed

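RNA-seq was performed by the authors on 8 libraries of NB4 cells (TruSeq, Illumina paired-end reads of 150 bases). Per the study's methods, reads were trimmed with Trim Galore, aligned to hg38 with HISAT2 and counted per gene with HTSeq; the submitters' processing notes also name Picard and SAMtools. The deposited values are raw counts per gene symbol, and rows that name no gene, 8.49 to 51.4% of read pairs outside genes and 2.39 to 4.31% ambiguous, were left out of library sizes and tests. Counts on genes ranged from 9708739 to 33017787 per library, and intervals and the floor of 3 counts cover counting error only.

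Each pair of groups was fitted with edgeR 4.0.16 (R 4.3.3; filterByExpr, TMM, quasi-likelihood test, Benjamini-Hochberg adjustment over all genes tested). A gene was called at an unadjusted P under 0.05 with at least 1.5-fold, the study's thresholds; the study used DESeq2, run here (1.42.0) as an alternative. The difference between the responses to ATRA was an interaction term in 1 fit of 8 libraries. With 2 libraries against 2, an exact two-sided permutation test of a single value cannot go below 0.333, so none is given. The fits were checked on simulated data. The members and lists were chosen with earlier results of these data known, so the members get no p-value. 1 member of the chosen set and some neighbouring genes are not reported here, and member and neighbour counts leave them out. The other members, the remaining family genes that passed the filter, up to 4 called genes per partner list and comparison by lowest P, called neighbours within 100 kb, and the 3 nearest profiles of ADGRE1 and ADGRG3 were named. Tables were made with pandas 2.3.3 and figures with matplotlib 3.10.9.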

Additional observations from a re-analysis of the deposited data

Results flagged for a closer look

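Reads outside genes, which enter no comparison, made up 51.4 and 51.0% of the read pairs of the 2 shKDM3B+ATRA libraries and 50.0% of those of scramble+ATRA replicate 2, against at most 9.62% in the other 5 libraries. Their part in the receptor levels was not tested beyond the values given without single libraries.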

How the results depend on the processing

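Counts of called genes are given for the untreated knockdown, the treated knockdown, ATRA in scramble cells and ATRA in shKDM3B cells, in that order. With each library left out in turn, members called ran from 2 to 4, 3 to 5, 4 to 6 and 5 to 6, other family genes from 2 to 6, 0 to 5, 3 to 7 and 7 to 8, and partner genes from 1 to 7, 2 to 14, 10 to 19 and 17 to 20. With adjusted p-values in place of unadjusted ones, 1 member, 0 other family genes and 0 partner genes were called in untreated and 0, 0 and 0 in treated knockdown cells, and 3 other family genes under ATRA in scramble cells. Without the filter on low counts, 5 other family genes were called in the untreated knockdown, and with DESeq2 1 partner gene was. No member value called with the reported settings changed direction under any alternative run. The ADGRG1 value in treated cells, not called, ran from -0.75 to 2.09 with single libraries left out and was called at 2.09, without scramble+ATRA replicate 2. The replicate numbers were not taken to pair libraries, since there are only 2 pairs and the correlations of their deviations were 0.389, 0.0261, -0.0731 and 0.183. In fits with a replicate block, members called were 3, 3, 5 and 6, and the call lost was that of ADGRE2 in treated cells. Size factors of DESeq2, library size alone, a minimum of 10 counts in 2 libraries and 1 fit of all libraries kept each of these counts within 1.5 times. Depth limits ADGRG1 and ADGRE3 most, at 0 to 7 counts in the shKDM3B libraries.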
